A study of Homo sapiens with 44 samples.

Results

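Integrin and laminin subunit genes were followed across the cytokine responses of a colon fibroblast line. The genes were taken by symbol alone, as the rows named ITGA or ITGB with digits, 2B or a single letter (D, E, L, M, V or X) and the rows named LAMA, LAMB or LAMC with a single digit. This gave 38 of the 40663 gene symbols in the table, 26 for integrins (18 α and 8 β subunits) and 12 for laminins. Bulk RNA-seq was available from 44 libraries of Ccd-18Co, an established fibroblast line from normal human colon, in 11 groups of 4. Cells were starved of serum for 72 h and then kept without a cytokine (unstimulated) or stimulated for 24 h with IL1B at 0.1 ng/ml or with IL6, IL13, IL17A, IL22, IFNA, IFNG, TGFB1, TNF or OSM at 10 ng/ml. These are the doses of the sample labels, and the study's own text also names a lower dose of IL1B for this experiment. All groups thus share the line, the plastic culture wells and the serum-free medium, and a single line stands in for the stromal cells of the intestine. Nothing in the labels says that the 4 replicates of a group are separate cultures, so that the p-values below measure only the spread between these libraries.

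Integrins are receptors for the extracellular matrix and for other cells. Each is a pair of an α and a β chain, and the α chain largely sets the ligand: α1, α2, α10 and α11 bind collagens, α3, α6 and α7 bind laminins, α5, α8 and αV bind proteins that carry an Arg-Gly-Asp (RGD) motif such as fibronectin, and α4 binds VCAM1 and fibronectin. Most of these α chains pair with the β1 chain, which ITGB1 encodes, whereas αV also pairs with β3, β5, β6 and β8. Laminins are trimers of an α, a β and a γ chain and a main component of basement membranes, and those with the α2 or the α4 chain are made by mesenchymal cells.

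Total estimated counts per library lay between 742173 and 2213424 (median 1480882), and the 38 genes together took 0.289% to 0.57% of them. A gene with 3 counts in a library stood at 1.39 to 3.85 CPM (counts scaled to the normalized library size), and values near this floor are limited by counting error, the only error such a floor covers. All 10 fibroblast markers (COL1A1, COL1A2, COL3A1, DCN, LUM, PDGFRA, PDGFRB, THY1, VIM, FAP) had counts in all 44 libraries. Of the epithelial markers CDX2 and MUC2 were at 0 in every library, of the endothelial markers KDR, and of the leukocyte markers CD3E and FCGR3A. Other members of these lists had counts: VIL1 in 43 libraries (median 8.45 CPM), KRT8 in 32 (median 1.03 CPM), KRT19 in 9, CD68 in 39 (median 5.04 CPM) and PECAM1 in 11 (at most 1.81 CPM). The smooth muscle markers ACTA2 and TAGLN had counts in all libraries and DES had a count in 1. The chemokine CCL26 stood at 908 ± 418 CPM (SD, n = 4) with IL13 against 1.21 ± 1.65 CPM in unstimulated cells, and the interferon-induced gene MX1 at 991 ± 172 CPM with IFNA against 2.04 ± 0.963 CPM. Both belong to 10 genes taken as a check of the labels, of which 9 were tested. At least 1 of the 9 rose with each cytokine except IL17A and IL22, where 0 rose. CXCL10, also on this list, stood at 83.6 ± 66.5 CPM with TGFB1 against 2.24 ± 2.92 CPM in unstimulated cells.

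In unstimulated cells the levels, given as CPM per kb of the canonical transcript so that genes could be compared, spread widely below a single dominant subunit. ITGB1, the shared β1 chain, stood at 741 ± 17.1 CPM per kb (SD, n = 4). A middle group followed with ITGA1 at 53.6 ± 12.3, LAMB1 at 51.9 ± 4.68, ITGAV at 44.8 ± 12.6, LAMA4 at 26.0 ± 6.92, ITGB8 at 24.4 ± 12.3, LAMC1 at 23.7 ± 4.58 and ITGAE at 21.1 ± 1.27 CPM per kb. Neighbours in this order (ITGA1, LAMB1 and ITGAV, and likewise LAMA4, ITGB8, LAMC1 and ITGAE) overlapped in their libraries and did not differ beyond their spread. Lower levels per kb were seen for ITGA2 (9.50 ± 3.93), ITGA5 (4.94 ± 2.32), ITGA4 (4.12 ± 1.21), ITGA8 (3.75 ± 1.33), LAMA2 (2.99 ± 2.00), ITGA6 (2.41 ± 0.484), ITGB5 (1.65 ± 1.22), LAMB2 (1.57 ± 0.771) and LAMA3 (1.30 ± 0.572). ITGA11, LAMA1 and ITGB3 had means of 0.918, 0.809 and 0.783 CPM per kb, and the other 18 genes stayed at or under 0.177. The laminin chains with the highest levels per kb were thus the α4, β1 and γ1 chains, which are known to assemble into a single trimer of mesenchymal and vessel basement membranes.

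**Figure D1:**
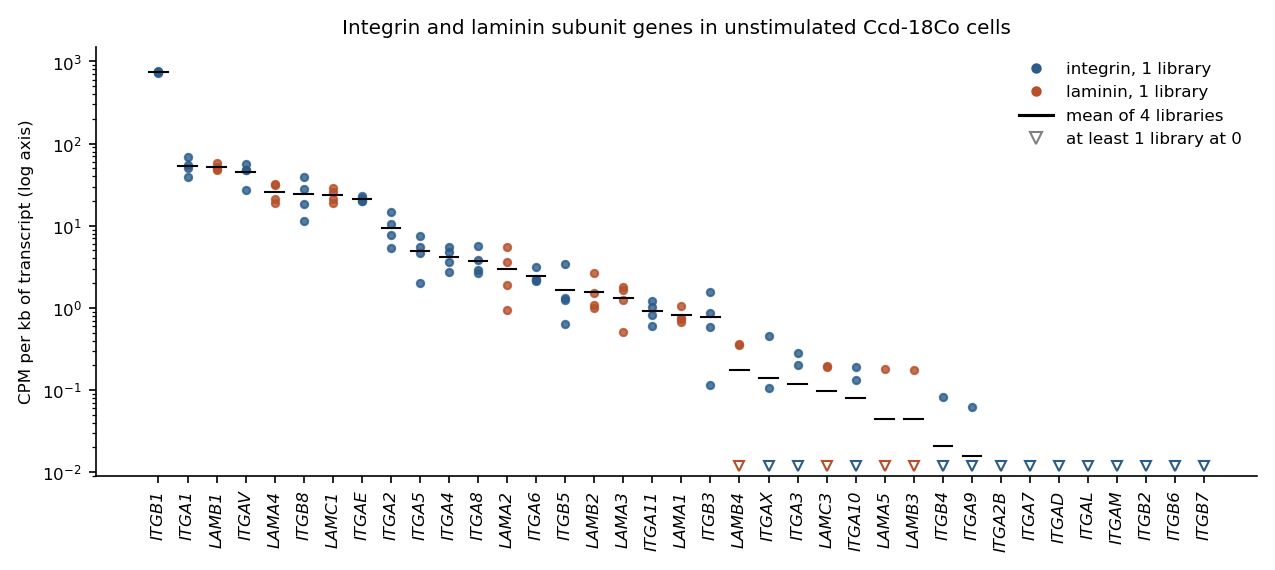
Levels of the integrin and laminin genes reported here in the 4 unstimulated libraries (y axis, CPM per kb of transcript, log axis), with points for libraries, bars for means and open triangles at the lower edge where at least 1 library was at 0. ITGB1 at 741 CPM per kb stands above all others, the next 7 genes have means between 21.1 and 53.6, and the triangles mark the genes at the low end.

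Counts were high enough to test 20 of the 38 genes (13 integrins and 7 laminins), among 9513 genes tested in all. The tested integrins were ITGA1, ITGA2, ITGA4, ITGA5, ITGA6, ITGA8, ITGA11, ITGAE, ITGAV, ITGB1, ITGB3, ITGB5 and ITGB8, and the tested laminins were LAMA1, LAMA2, LAMA3, LAMA4, LAMB1, LAMB2 and LAMC1. Among the 18 others, sums over all 44 libraries were 81 counts for ITGA3, 53 for LAMA5, 50 for LAMB3, 23 for LAMB4, 21 for LAMC3, 19 for ITGAX, 15 for ITGA9, 11 for ITGA10, 5 each for ITGA2B and ITGA7, 4 for ITGB4, and 2 each for ITGAL and ITGB2. ITGAM, ITGAD, ITGB6 and ITGB7 were at 0 in all 44 libraries. The integrins of the blood lineages (ITGAL, ITGAM, ITGAX, ITGAD, ITGA2B, ITGB2 and ITGB7) and LAMB3 and ITGB4, a laminin chain and an integrin subunit of epithelial hemidesmosomes, were thus all too low to test, whereas LAMA3, the α chain that pairs with LAMB3, was tested.

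The promoters of the genes on which the results below turn are shown next, because the α4, β1 and γ1 laminin genes fell together with TNF and IL1B and because the neighbouring genes ITGA1 and ITGA2 moved in opposite directions with TNF and IFNG. Windows were the 250 bases before the gene start in RefSeq (GRCh38.p14), which gave a window for 26 of the 38 genes and for 18 of the 20 tested ones. Each is printed 5′ to 3′ on the strand of its gene, as the longest stretch that no annotated exon covers, and capitals mark the GC box letters GGGCGG on either strand (read as CCGCCC on the other). For LAMA4 exons cover 187 of the 250 bases, so that only 63 are printed. These lie inside the GENCODE span of the gene and not before its annotated 5′ end.
LAMA4, chr6:112254723-112254785, minus strand: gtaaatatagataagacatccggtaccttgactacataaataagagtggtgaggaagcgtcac
LAMB1, chr7:108003214-108003411, minus strand: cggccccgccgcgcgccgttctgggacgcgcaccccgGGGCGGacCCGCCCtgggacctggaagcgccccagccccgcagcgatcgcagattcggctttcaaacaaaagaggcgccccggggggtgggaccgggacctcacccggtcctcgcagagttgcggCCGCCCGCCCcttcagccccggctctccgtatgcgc
LAMC1, chr1:183023170-183023419, plus strand: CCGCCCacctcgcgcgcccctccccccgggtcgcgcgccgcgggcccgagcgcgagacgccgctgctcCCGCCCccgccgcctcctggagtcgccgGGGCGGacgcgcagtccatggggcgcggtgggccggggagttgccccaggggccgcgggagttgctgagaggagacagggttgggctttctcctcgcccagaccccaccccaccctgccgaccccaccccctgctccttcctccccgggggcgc
ITGA1, chr5:52787666-52787915, plus strand: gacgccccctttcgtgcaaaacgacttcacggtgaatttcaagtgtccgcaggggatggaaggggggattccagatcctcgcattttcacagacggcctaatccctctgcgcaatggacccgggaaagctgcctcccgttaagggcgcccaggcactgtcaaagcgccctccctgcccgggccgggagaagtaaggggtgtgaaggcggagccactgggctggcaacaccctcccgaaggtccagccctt
ITGA2, chr5:52989102-52989339, plus strand: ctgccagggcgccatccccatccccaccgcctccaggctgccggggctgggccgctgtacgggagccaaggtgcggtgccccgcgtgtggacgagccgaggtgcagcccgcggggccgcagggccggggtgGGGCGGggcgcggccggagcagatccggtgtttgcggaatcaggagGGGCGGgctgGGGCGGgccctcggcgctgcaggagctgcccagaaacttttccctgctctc

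The GC box was found in the windows of 11 of the 18 tested genes, among them LAMB1, LAMC1 and ITGA2, and in 42.6% of 35116 promoter windows of the same length. No GC box was found in the windows of LAMA4 and ITGA1. Motifs of the transcription factors that the cytokines are known to act through were rare in these windows. The NF-kB letters GGANTTTCC, searched on both strands like all others, were in 0 of the 18 windows and in 1.5% of all windows. The AP-1 letters TGANTCA were in that of LAMA3 (6.6% of all windows), the STAT letters TTCNNNGAA in those of ITGAE and LAMB2 (6.6%), the interferon response letters GAAANNGAA in that of ITGB5 (6.9%), the SMAD letters GTCTAGAC in 0 (0.2%), and the TATA letters TATAAA in those of ITGA6 and ITGB1 (10.7%). A match is a description of these letters in this window and not a bound site, and the absence of a match says nothing about the factor.

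Each cytokine was compared with unstimulated cells in edgeR's quasi-likelihood model, p-values were adjusted over all 9513 genes by the Benjamini-Hochberg method, and calls were made under an adjusted p of 0.05. All 10 comparisons share the same 4 unstimulated libraries, and in bulk libraries fewer cells of a kind and less RNA per cell cannot be told apart. Most calls were falls. With TNF, 9 of the 20 tested genes were called, 1 higher and 8 lower, where 11.5% of all genes tested were called (5.37% higher, 6.09% lower), and 6 also passed an absolute log2 fold change of 1.5, where 4.19% of all genes did. IL1B gave 7 calls, 2 higher and 5 lower, against a background of 7.38% (3.46% higher, 3.92% lower), with 4 past the fold limit against 2.78%. These were the 2 cytokines under which laminin genes were called most often, 4 of 7 tested laminins with TNF and 3 of 7 with IL1B, all lower.

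Both interferons gave more falls than rises. IFNA gave 6 calls, 1 higher and 5 lower, against 9.85% of all genes (4.99% higher, 4.86% lower), with 1 past the fold limit against 3.98%. IFNG gave 7 calls, 1 higher and 6 lower, against 10.6% (5.52% higher, 5.13% lower), with 1 past the fold limit against 3.53%. LAMA4 with IFNG was the only laminin among these 13 calls, where 13 of the 20 tested genes are integrins, and the fall of LAMA4 with IFNA (log2 −0.64, adjusted p = 0.063) was just short of a call.

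With TGFB1 there were 4 calls, 1 higher and 3 lower, against 5.69% (2.61% higher, 3.08% lower), with 1 past the fold limit against 1.70%. IL13 gave 4 calls, 1 higher and 3 lower, all of integrins, against 3.93% (1.53% higher, 2.40% lower), with 2 past the fold limit against 1.47%. IL17A gave 2 calls, both lower, against 1.52% (0.599% higher, 0.925% lower), with 0 past the fold limit against 0.452%. A single gene, ITGA6, fell with OSM, where 3.96% of all genes were called (1.42% higher, 2.54% lower) and 1.30% passed the fold limit.

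IL6 and IL22 called 0 of the 20 genes by edgeR. For IL6, 0.0105% of all genes were called (0.0105% higher, 0% lower, 0.0105% past the fold limit), 233 genes had an unadjusted p under 0.05, and DESeq2 also called 0 of the 20. For IL22, 0% of all genes were called in either direction or past the fold limit, 1037 had an unadjusted p under 0.05, and DESeq2 called 1 of the 20, ITGB1. The median log2 fold change of the 20 genes was −0.56 with TNF, −0.83 with IL1B, −0.63 with IFNG, −0.54 with IL17A, −0.39 with TGFB1 and −0.35 with IFNA, where the median of all genes tested lay between −0.019 and −0.006. For IL13, OSM, IL6 and IL22 the median of the 20 genes lay between −0.10 and 0.056, and that of all genes between −0.046 and 0.002.

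**Figure D2:**
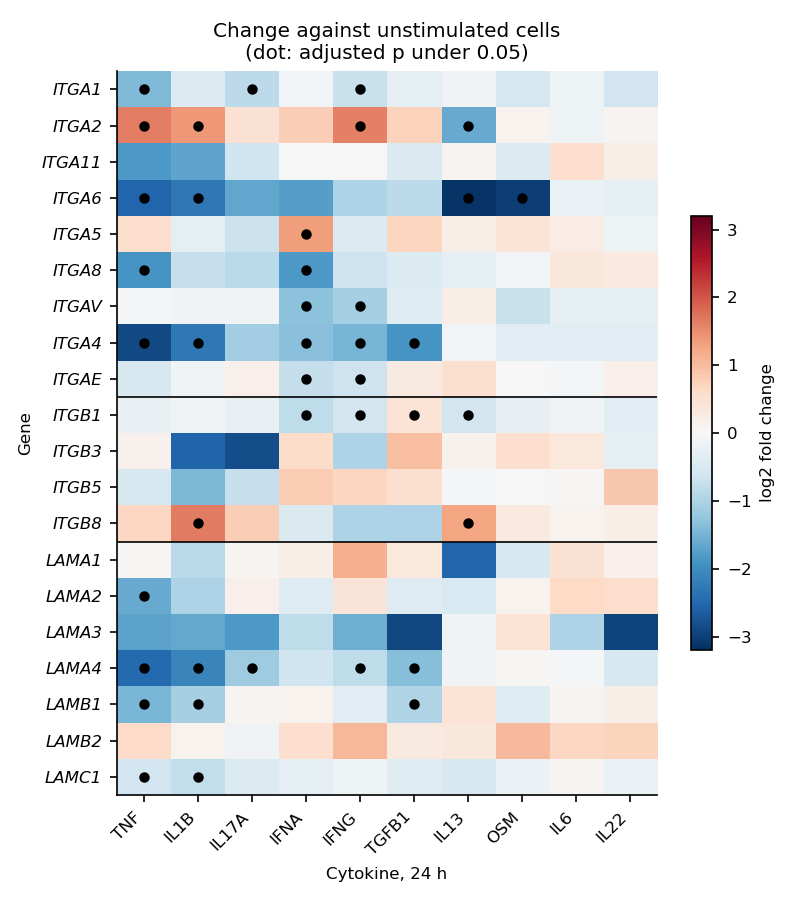
Log2 fold change against unstimulated cells (colour scale, red higher and blue lower) of the 20 tested genes (rows, with lines between α subunits, β subunits and laminins) for each of the 10 cytokines (columns), fitted over 4 libraries a group, with a dot where the adjusted p was under 0.05. TNF has 9 dots and IL1B 7, most of them blue, ITGA2 is red with TNF, IL1B and IFNG and blue with IL13, and IL6 and IL22 have no dot.

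Values that move with these groups stand beside the counts. Of the 10 fibroblast markers 6 fell with TNF, 4 with IL1B, 4 with TGFB1, 3 with IFNA, 2 with IFNG and 1 with IL17A. In the same order 6.09%, 3.92%, 3.08%, 4.86%, 5.13% and 0.925% of all genes were called lower. With IL13 (3.93% of all genes called in either direction) VIM rose and PDGFRA fell, and with OSM (3.96%) DCN rose. The summed level of the 10 was 29285 to 41327 CPM in unstimulated libraries, 21469 to 27792 CPM with TNF and 41068 to 52507 CPM with IL13. Of the 7 smooth muscle markers 6 were tested, of which 1 fell with TNF, 3 with IL1B, 2 with IL17A and 1 with IFNG, and their summed level was 825 to 2569 CPM in unstimulated libraries and 393 to 633 CPM with IL1B (DES at 0 in both). Fold changes also followed the GC content of the transcript: the median log2 fold change of the 1529 genes above 55% GC and of the 3276 genes under 42% GC was 0.33 and −0.16 with TNF, 0.40 and −0.23 with IFNG, and 0.021 and −0.032 with IL1B. These medians were 0.288 and −0.173 with OSM and 0.285 and −0.138 with TGFB1. The canonical transcripts of ITGA1, ITGA2, ITGA4, ITGAV, ITGB1 and ITGB8 are between 38.3% and 40.1% GC. Those of LAMA4 and LAMB1 are at 45.1% and 49.4%. The part of these measures in the results was not tested, beyond a fit with a correction for GC content, in which TNF called 10 and IFNG 5 of the 20 genes.

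The α4 laminin chain gave the largest called fall among the laminins. LAMA4 (chr6:112107931-112254939, minus strand) stood at 226, 235, 154 and 137 CPM in the unstimulated libraries. It was at 32.5, 33.6, 43.5 and 25.2 CPM with TNF and at 42.4, 49.0, 45.7 and 37.6 CPM with IL1B. All 8 of these stimulated libraries lay below every unstimulated one, and LAMA4 was 5.61-fold lower with TNF (log2 fold change −2.49, SE 0.25, adjusted p = 2.57e-10) and 4.30-fold lower with IL1B (−2.11, SE 0.24, adjusted p = 1.05e-08). With TGFB1 the LAMA4 libraries were at 105, 103, 49.9 and 36.0 CPM, and with IL17A at 81.2, 79.6, 102 and 81.5 CPM. Both groups again lay below all unstimulated libraries, the TGFB1 libraries being split into a higher and a lower pair, and LAMA4 fell 2.57-fold with TGFB1 (−1.36, SE 0.23, adjusted p = 0.000109) and 2.19-fold with IL17A (−1.13, SE 0.23, adjusted p = 0.00367). With IFNG, LAMA4 was at 94.7 to 138 CPM, overlapping the unstimulated range at its upper end, and the fall of 0.81 on the log2 scale (adjusted p = 0.0141) lost its call without unstimulated replicate 2 or IFNG replicate 3 or 4 and in a fit of only the 8 libraries compared (adjusted p up to 0.0784 over the alternatives). IL13 (154 to 203 CPM), OSM (179 to 207 CPM) and IL6 left LAMA4 within or close to the unstimulated range, and IFNA gave −0.64 with an adjusted p of 0.063.

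LAMB1 (chr7:107923799-108003213, minus strand), a β chain of many laminins, was at 272, 331, 292 and 279 CPM in unstimulated cells. TNF libraries stood at 104, 136, 114 and 73.4 CPM, and IL1B libraries at 142, 182, 123 and 119 CPM. These 8 libraries were all below the lowest unstimulated one, with folds of 2.76 lower for TNF (log2 −1.46, SE 0.18, adjusted p = 4.15e-08) and 2.07 lower for IL1B (−1.05, SE 0.18, adjusted p = 2.45e-05). TGFB1 libraries were at 151, 145, 141 and 169 CPM, 1.94-fold lower (−0.95, SE 0.18, adjusted p = 0.000298) and without overlap. IL13 libraries were at 421, 406, 405 and 367 CPM, all 4 above the unstimulated ones, but the log2 fold change of 0.45 had an adjusted p of 0.152. Exons of LAMB1 share 300 of their 18592 bases with DLD on the opposite strand (median 398.5 counts of DLD per library), and since the strand of the counting is not given, reads there cannot be told apart.

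The γ1 chain, LAMC1 (chr1:183023420-183145592, plus strand), fell less. It was at 204, 230, 150 and 167 CPM in unstimulated cells, at 125, 87.0, 138 and 137 CPM with TNF, and at 120, 119, 95.9 and 102 CPM with IL1B. Neither stimulated group overlapped the unstimulated one, and the falls were 1.54-fold with TNF (log2 −0.62, SE 0.20, adjusted p = 0.0351) and 1.72-fold with IL1B (−0.78, SE 0.20, adjusted p = 0.00823). The TNF call was lost without unstimulated replicate 1 or 2 or TNF replicate 1 or 2, with all genes of any count and in the fit of 8 libraries (adjusted p up to 0.17 over the alternatives), and the IL1B call without unstimulated replicate 2 (0.0548).

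LAMA2 (chr6:128883138-129516566, plus strand), the α2 chain of muscle and mesenchymal basement membranes, was at 35.3, 53.2, 9.15 and 18.4 CPM in unstimulated cells and at 9.18, 8.61, 4.50 and 15.0 CPM with TNF. The unstimulated libraries varied widely and the groups overlapped. The fitted fall was 3.03-fold (log2 −1.60, SE 0.42, adjusted p = 0.00663), and it lost its call without unstimulated replicate 2 or in the fit of 8 libraries (adjusted p up to 0.0877). LAMB2, the β2 chain, had 8.93 ± 4.39 CPM in unstimulated cells and between 8.47 and 19.1 CPM as group means under the cytokines, and was called in 0 comparisons by edgeR (lowest adjusted p 0.089, with IFNG).

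**Figure D3:**
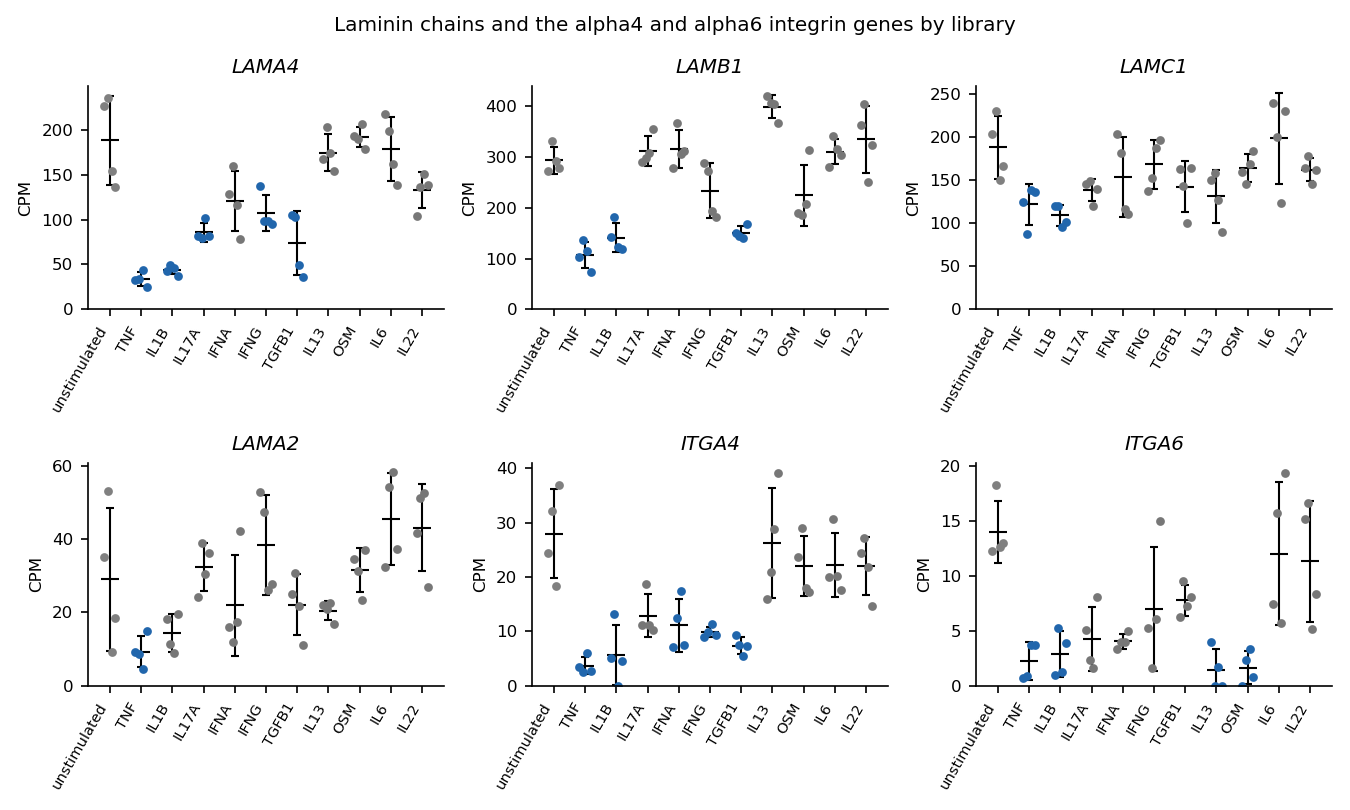
Level (y axis, CPM) of LAMA4, LAMB1, LAMC1, LAMA2, ITGA4 and ITGA6 in the 4 libraries of each group (x axis), with bars for mean ± SD and with libraries in blue where the gene was called lower than in unstimulated cells. LAMA4, LAMB1 and LAMC1 are lower with TNF and IL1B without overlap, and the LAMB1 libraries with IL13 (367 to 421 CPM) lie above the unstimulated ones without being called.

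Among the receptors, the collagen-binding integrins ITGA1 and ITGA2, which lie side by side on the plus strand of chromosome 5 (chr5:52787916-52959209 and chr5:52989340-53094779), moved in opposite directions with TNF and IFNG. ITGA1, the α1 chain, was at 549, 742, 421 and 590 CPM in unstimulated cells and at 262, 236, 173 and 187 CPM with TNF. It was at 345, 329, 309 and 295 CPM with IL17A and at 412, 439, 302 and 261 CPM with IFNG. The TNF and IL17A libraries were all below the unstimulated ones, whereas 1 IFNG library reached into the unstimulated range. ITGA1 fell 2.68-fold with TNF (log2 −1.42, SE 0.20, adjusted p = 7.13e-07), 1.80-fold with IL17A (−0.85, SE 0.19, adjusted p = 0.0121) and 1.63-fold with IFNG (−0.70, SE 0.19, adjusted p = 0.0119). The IL17A call was lost without unstimulated replicate 2 or IL17A replicate 4 (adjusted p up to 0.113 over the alternatives), and the IFNG call without unstimulated replicate 2 or IFNG replicate 3 or 4, in the fit of 8 libraries and after the GC correction (up to 0.109). ITGA1 shares 499 of its 18545 exonic bases with PELO on the same strand (median 129.5 counts), so that reads there could go to either gene.

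ITGA2, the α2 chain, was at 42.6, 59.8, 81.6 and 114 CPM in unstimulated cells. It stood at 187, 211, 238 and 295 CPM with TNF, at 141, 179, 235 and 221 CPM with IL1B, and at 148, 177, 266 and 311 CPM with IFNG. All 12 of these libraries lay above the highest unstimulated one, although the unstimulated libraries themselves differed widely. The rises were 3.14-fold with TNF (log2 1.65, SE 0.29, adjusted p = 4.3e-05), 2.61-fold with IL1B (1.39, SE 0.28, adjusted p = 0.00063) and 3.04-fold with IFNG (1.60, SE 0.29, adjusted p = 6.92e-05). With IL13 the direction was the opposite: the libraries were at 30.5, 23.2, 13.3 and 31.1 CPM, all below the unstimulated ones, 3.06-fold lower (−1.61, SE 0.31, adjusted p = 0.00075). IFNA (67.2 to 190 CPM) gave 0.79 with an adjusted p of 0.0698 and TGFB1 (110 to 134 CPM) gave 0.75 with an adjusted p of 0.119. These 4 calls kept their side of the threshold in all 15 alternatives tried. ITGA11, the third tested collagen receptor, was low throughout (9.35 ± 2.71 CPM unstimulated, 2.52 ± 1.37 CPM with TNF, adjusted p = 0.118), and ITGA10 was not tested.

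ITGA6 (chr2:172427354-172506459, plus strand), the α6 chain and the only tested laminin-binding α subunit, fell with 4 cytokines. Its libraries were at 12.2, 18.2, 12.7 and 13.0 CPM in unstimulated cells, 87 counts in all. They were at 3.98, 0, 1.73 and 0 CPM with IL13 (9 counts in all) and at 0, 2.37, 3.34 and 0.82 CPM with OSM (10 counts). With TNF they were at 0.71, 0.86, 3.75 and 3.75 CPM (14 counts) and with IL1B at 1.01, 5.30, 1.27 and 3.89 CPM (18 counts). Every one of these 16 libraries lay below the lowest unstimulated one, but all were near the floor of 3 counts. The fitted log2 fold changes were −3.13 (SE 0.75, adjusted p = 0.00862) with IL13, −3.02 (SE 0.74, adjusted p = 0.00955) with OSM, −2.54 (SE 0.71, adjusted p = 0.0127) with TNF and −2.28 (SE 0.69, adjusted p = 0.0314) with IL1B. Without OSM replicate 1 the OSM call was lost (adjusted p = 0.0578). With all libraries, DESeq2 gave ITGA6 no adjusted p for OSM, and the 1 gene it called of the 20 was ITGAV. Also lost were the TNF call without TNF replicate 1 (adjusted p = 0.0543) and the IL1B call without unstimulated replicate 2 or IL1B replicate 1, 3 or 4 or with all genes of any count (up to 0.125 over the alternatives). IFNA libraries (3.31 to 4.98 CPM) were also all below the unstimulated ones, with −1.77 and an adjusted p of 0.092. So were the libraries of IL17A (−1.65, adjusted p = 0.253) and of TGFB1 (−0.85, adjusted p = 0.533), without a call.

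Of the RGD-binding α subunits, ITGAV and ITGA8 fell and ITGA5 rose with IFNA. ITGAV (chr2:186590010-186680901, plus strand), the αV chain of the vitronectin receptors, was at 190, 339, 334 and 399 CPM in unstimulated cells, at 109, 139, 119 and 144 CPM with IFNA, and at 173, 218, 95.4 and 119 CPM with IFNG. The IFNA libraries lay below all unstimulated ones, whereas the IFNG libraries overlapped the lowest of them. ITGAV fell 2.47-fold with IFNA (log2 −1.30, SE 0.24, adjusted p = 0.000104) and 2.08-fold with IFNG (−1.06, SE 0.24, adjusted p = 0.00203). ITGA8 (chr10:15513954-15719922, minus strand), the α8 chain of smooth muscle and other mesenchymal cells, was at 36.7, 24.8, 17.6 and 19.1 CPM in unstimulated cells. It was at 3.53, 6.89, 6.0 and 9.64 CPM with TNF and at 9.37, 6.58, 7.15 and 4.36 CPM with IFNA, in both without overlap. ITGA8 fell 3.71-fold with TNF (−1.89, SE 0.46, adjusted p = 0.00337) and 3.55-fold with IFNA (−1.83, SE 0.45, adjusted p = 0.0041). ITGA5 (chr12:54395261-54419266, minus strand), the α5 chain of the classical fibronectin receptor, was at 32.3, 23.3, 8.44 and 19.8 CPM unstimulated and at 70.5, 61.9, 39.7 and 43.6 CPM with IFNA. All IFNA libraries were higher, by 2.55-fold (1.35, SE 0.40, adjusted p = 0.0207), and the call was lost without unstimulated replicate 3 or 4 or IFNA replicate 1 or 2 (adjusted p up to 0.0989).

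ITGA4 (chr2:181457202-181538940, plus strand), the α4 chain that binds VCAM1 and fibronectin, fell with 5 of the 10 cytokines, more than any other of the 20 genes except LAMA4, which also fell with 5. Unstimulated libraries were at 24.5, 32.1, 18.3 and 36.9 CPM. TNF libraries were at 3.53, 2.58, 6.0 and 2.68 CPM and IL1B libraries at 5.05, 13.3, 0 and 4.54 CPM. TGFB1 libraries were at 9.36, 7.44, 5.44 and 7.34 CPM, IFNG libraries at 9.04, 9.97, 11.3 and 9.26 CPM, and IFNA libraries at 7.16, 12.5, 17.5 and 7.47 CPM. All 20 of these libraries lay below the lowest unstimulated one. The TNF libraries were near the floor of 3 counts, which is 1.61 to 2.58 CPM in that group, and 1 IL1B library was at 0. The log2 fold changes were −2.90 with TNF (SE 0.49, adjusted p = 2.81e-05), −2.28 with IL1B (SE 0.46, adjusted p = 0.00048), −1.90 with TGFB1 (SE 0.46, adjusted p = 0.00707), −1.49 with IFNG (SE 0.44, adjusted p = 0.0209) and −1.33 with IFNA (SE 0.43, adjusted p = 0.0397). The interferon calls were the less stable ones: the IFNG call was lost without unstimulated replicate 2 or 4 or IFNG replicate 4 and after the GC correction (adjusted p up to 0.0742), and the IFNA call without unstimulated replicate 2 or 4 or IFNA replicate 1, 2 or 4, with all genes of any count and after the GC correction (up to 0.137). ITGA4 shares 2813 of its 10654 exonic bases with CERKL on the opposite strand (median 11.5 counts per library), which makes its level uncertain without strand.

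ITGAE (chr17:3714628-3801188, minus strand), the αE chain known from intraepithelial lymphocytes, had counts in all groups. Of the 8 leukocyte markers only CD68 had enough counts to be tested, CD3E and FCGR3A were at 0 in all libraries, and the summed level of the 8 was 0 to 9.30 CPM in unstimulated libraries, 38.0 to 73.8 CPM with IFNA and 8.31 to 20.6 CPM with IFNG, mostly from CD68, which rose with both (59.1 ± 16.7 CPM with IFNA). ITGAE was at 76.5 to 86.7 CPM in unstimulated libraries, at 42.4 to 53.2 CPM with IFNA and at 33.2 to 75.4 CPM with IFNG. Neither interferon group overlapped the unstimulated one, and the falls were 1.70-fold with IFNA (log2 −0.77, SE 0.20, adjusted p = 0.00527) and 1.58-fold with IFNG (−0.66, SE 0.20, adjusted p = 0.0209). The IFNG call was lost without IFNG replicate 1, 2 or 4, with all genes of any count and in the fit of 8 libraries (adjusted p up to 0.181), and the IFNA call with all genes of any count (0.0519). Its partner chain gene ITGB7 was at 0 in all libraries. ITGAE shares 427 of its 6602 exonic bases with HASPIN on the opposite strand, which had at most 8 counts in a library.

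Of the β subunits ITGB1 and ITGB8 were called. ITGB1 (chr10:32887273-33005792, minus strand), with the highest level of all members, was at 2677, 2782, 2795 and 2822 CPM in unstimulated cells. It was at 1618, 1576, 1581 and 1564 CPM with IFNA, at 1756, 2130, 1712 and 1721 CPM with IFNG, at 1920, 2168, 1648 and 1608 CPM with IL13, and at 3599, 3484, 3528 and 4345 CPM with TGFB1. The interferon and IL13 libraries were all below and the TGFB1 libraries all above the unstimulated ones. ITGB1 fell 1.75-fold with IFNA (log2 −0.81, SE 0.12, adjusted p = 3.12e-06), 1.51-fold with IFNG (−0.60, SE 0.12, adjusted p = 0.000518) and 1.51-fold with IL13 (−0.59, SE 0.12, adjusted p = 0.0015). The IFNG and IL13 calls were lost in the fit of 8 libraries (adjusted p = 0.0994 and 0.0576). With TGFB1 it rose 1.35-fold (0.43, SE 0.12, adjusted p = 0.0233), a call that was lost without unstimulated replicate 2, with all genes of any count and in the fit of 8 libraries (adjusted p up to 0.23). TNF (2112 to 2694 CPM) and IL1B (2429 to 2692 CPM) gave −0.25 and −0.11, with adjusted p of 0.208 and 0.751.

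ITGB8 (chr7:20330702-20415754, plus strand), whose chain pairs with αV and is known for binding latent TGF-β, was at 101, 165, 254 and 355 CPM in unstimulated cells. It was at 591, 885, 710 and 584 CPM with IL1B and at 431, 685, 505 and 469 CPM with IL13. Both groups lay above all unstimulated libraries, which themselves spread over a wide range. ITGB8 rose 3.17-fold with IL1B (log2 1.66, SE 0.37, adjusted p = 0.00159) and 2.39-fold with IL13 (1.26, SE 0.37, adjusted p = 0.0386). The IL13 call was lost without unstimulated replicate 1 or 2 or IL13 replicate 2 or 3 (adjusted p up to 0.151). TNF libraries (254 to 442 CPM) overlapped the unstimulated ones (0.65, adjusted p = 0.284), and TGFB1 libraries stood at 31.2, 52.1, 114 and 242 CPM (−0.98, adjusted p = 0.12). ITGB3 and ITGB5, the other tested partners of αV, were called in 0 comparisons by edgeR. ITGB3 was low, at 4.65 ± 3.60 CPM unstimulated and 0.696 ± 0.81 CPM with IL1B (adjusted p = 0.0527), and ITGB5 had group means of 2.66 to 13.5 CPM.

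**Figure D4:**
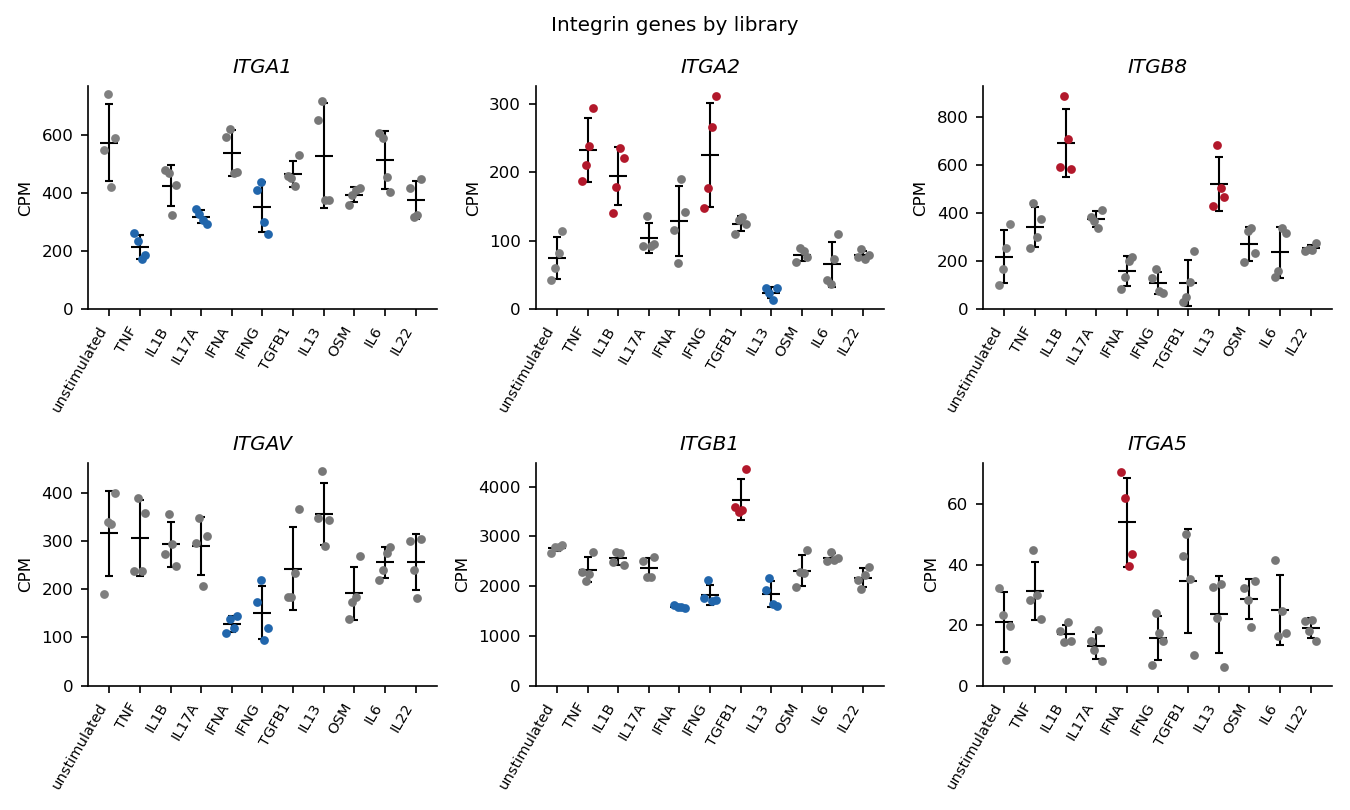
Level (y axis, CPM) of ITGA1, ITGA2, ITGB8, ITGAV, ITGB1 and ITGA5 in the 4 libraries of each group (x axis), with bars for mean ± SD and with libraries in red where the gene was called higher and in blue where it was called lower than in unstimulated cells. With TNF, ITGA1 is lower and ITGA2 higher, and ITGB1 is lower with IFNA, IFNG and IL13 and higher with TGFB1.

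TGFB1 and IL13, both known as cytokines of fibrosis, were compared with each other directly. They differed in 9 of the 20 genes, 4 higher and 5 lower with TGFB1, where 12.4% of all genes were called (6.05% higher, 6.39% lower), and 6 passed the fold limit, where 4.82% of all genes did. The median log2 fold change of the 20 genes was −0.11, that of all genes 0.033. Higher with TGFB1 were ITGB1 (2.04-fold, log2 1.03, SE 0.12, adjusted p = 2.37e-08), ITGA2 (5.14-fold, 2.36, SE 0.31, adjusted p = 2.82e-07), LAMA1 and ITGA6. Lower with TGFB1 were ITGB8 (4.71-fold, −2.23, SE 0.38, adjusted p = 3.22e-05), LAMB1 (2.64-fold, −1.40, SE 0.18, adjusted p = 8.46e-08), LAMA4 (2.38-fold, −1.25, SE 0.24, adjusted p = 0.00013), ITGA4 (3.48-fold, −1.80, SE 0.46, adjusted p = 0.00558) and LAMA3. In each of these 9 genes the 4 libraries of one cytokine lay apart from the 4 of the other. The 9 were chosen by a test on these same libraries, so this adds no support to the calls. The share of all genes without such overlap was not counted.

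LAMA1 and LAMA3, both α chains typical of epithelial laminins, rested on few counts in this comparison. LAMA1 was at 5.46, 17.0, 13.6 and 4.40 CPM with TGFB1 and at 0, 1.54, 1.15 and 2.66 CPM with IL13 (7 counts in all), a fitted difference of 2.89 (SE 0.81, adjusted p = 0.0118). LAMA3 was at 0.78, 4.25, 1.81 and 0.73 CPM with TGFB1 (8 counts in all) and at 11.3, 16.2, 12.7 and 11.5 CPM with IL13, a fitted difference of −2.81 (SE 0.94, adjusted p = 0.0414). ITGA6 was at 6.24, 9.57, 7.26 and 8.07 CPM with TGFB1, above its 4 IL13 libraries given before (2.28, SE 0.77, adjusted p = 0.0407). The LAMA3 call was lost without any 1 of 7 of the 8 libraries (all but TGFB1 replicate 2, adjusted p up to 0.12), the ITGA6 call without IL13 replicate 2, 3 or 4 or any TGFB1 library, with all genes of any count and with the replicate block (up to 0.135), and the LAMA1 call without IL13 replicate 1 (0.052). Against unstimulated cells neither laminin was called: LAMA1 gave −2.54 with IL13 (adjusted p = 0.061) and LAMA3 gave −2.91 with TGFB1 (adjusted p = 0.0555). For LAMA3, OSM libraries at 13.2 to 21.3 CPM and unstimulated libraries at 5.46 to 19.1 CPM had the highest means.

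**Figure D5:**
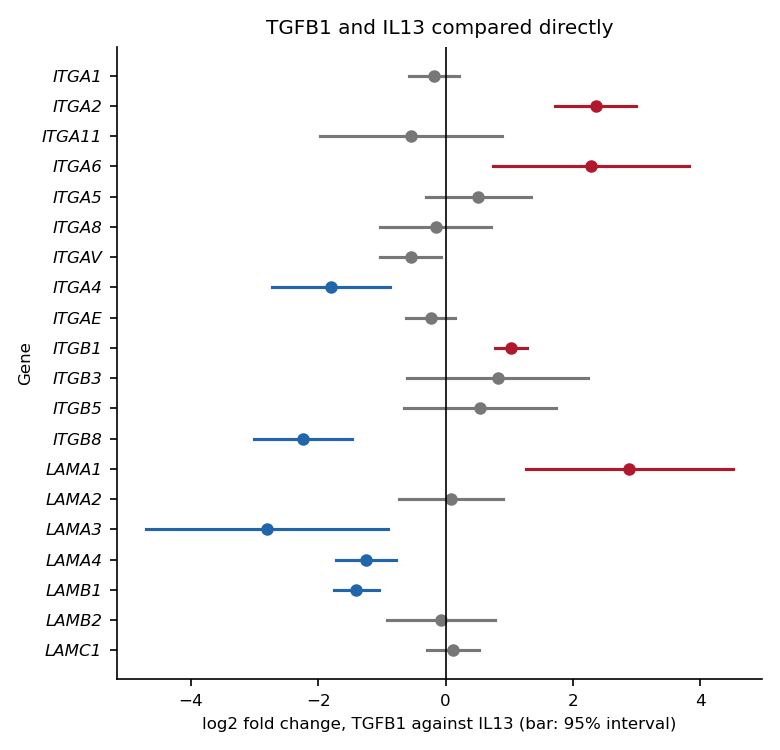
Log2 fold change between TGFB1 and IL13 libraries (x axis, positive where TGFB1 was higher) of the 20 tested genes (y axis), with points for the fitted value over 4 libraries a group and bars for its 95% interval, in red or blue where the adjusted p was under 0.05. ITGA2, ITGA6, ITGB1 and LAMA1 lie to the right and ITGA4, ITGB8, LAMA3, LAMA4 and LAMB1 to the left, with the widest bars for LAMA3 and LAMA1.

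TNF at 10 ng/ml and IL1B at 0.1 ng/ml were also compared directly. Only ITGA1 of the 20 genes was called, lower with TNF, where 1.15% of all genes were called (0.452% higher, 0.694% lower), and 0 passed the fold limit against 0.368%. ITGA1 was at 479, 470, 325 and 431 CPM with IL1B, all above the TNF libraries given before, 1.99-fold apart (log2 −0.99, SE 0.20, adjusted p = 0.00277). For the other genes called under 1 of the 2 cytokines only, the direct difference did not pass the test, and its 95% interval was wide: −1.74 to −0.28 for ITGB8 (adjusted p = 0.197), −2.09 to −0.22 for ITGA8 (0.278) and −1.46 to 0.26 for LAMA2 (0.613). For LAMA4 the interval was −0.89 to 0.12 and for ITGA4 −1.66 to 0.43.

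IFNA and IFNG differed in 2 of the 20 genes, both higher with IFNA, where 9.39% of all genes were called (4.93% higher, 4.46% lower) and 1 passed the fold limit against 2.74%. ITGA5 was at 6.78, 24.1, 17.3 and 15.0 CPM with IFNG, all below the IFNA libraries, 3.43-fold apart (log2 1.78, SE 0.42, adjusted p = 0.00296). ITGA1 was at 595, 621, 471 and 473 CPM with IFNA, above all IFNG libraries, 1.53-fold apart (0.61, SE 0.19, adjusted p = 0.0351), a call that was lost without IFNA replicate 1 or 2 or IFNG replicate 3 or 4, in the fit of 8 libraries and after the GC correction (adjusted p up to 0.157). ITGA2 gave −0.81 (95% interval −1.37 to −0.25, adjusted p = 0.0553). For the genes that fell with both interferons the intervals of the difference included 0, among them ITGAV (−0.74 to 0.24), ITGB1 (−0.45 to 0.038) and ITGAE (−0.51 to 0.30).

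Genes that work with these subunits were counted by list. Of 13 partners of laminin in basement membranes 8 were tested. NID1 (nidogen, which links laminin to collagen IV), COL4A1 and FBLN1 fell with TNF and with IL1B, and 0 rose, the remaining 5 not passing the test. NID1 and NTN4 fell with TGFB1, NTN4 (netrin-4, which binds laminin γ1) from 27.8 ± 13.6 to 2.96 ± 4.93 CPM (log2 −3.06, SE 0.82, adjusted p = 0.0154). COL4A1 fell with OSM, COL4A2 rose with IFNG and FBLN1 rose with IL13, and IL17A, IFNA, IL6 and IL22 called 0 of the 8 by edgeR. Of all genes tested 11.5% were called with TNF, 7.38% with IL1B, 5.69% with TGFB1, 3.96% with OSM, 10.6% with IFNG and 3.93% with IL13. The shares were 1.52% with IL17A, 9.85% with IFNA, 0.0105% with IL6 and 0% with IL22.

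Ligands of the integrins moved in both directions. Of 15 ligand genes 11 were tested, of which 2 rose and 4 fell with TNF, 1 rose and 4 fell with IL1B, 0 rose and 2 fell with IL17A, 5 rose and 1 fell with IFNA, 2 rose and 1 fell with IFNG, 3 rose and 2 fell with TGFB1, 4 rose and 0 fell with IL13, and 3 rose and 0 fell with OSM, while IL6 and IL22 called 0. Of all genes tested 5.37% rose and 6.09% fell with TNF, 3.46% and 3.92% with IL1B, 0.599% and 0.925% with IL17A, 4.99% and 4.86% with IFNA, 5.52% and 5.13% with IFNG, 2.61% and 3.08% with TGFB1, 1.53% and 2.40% with IL13, and 1.42% and 2.54% with OSM. VCAM1, the cell-surface ligand of α4 integrins, was at 53.4 ± 16.1 CPM unstimulated. It rose to 197 ± 42.4 CPM with IFNA (log2 1.88, SE 0.29, adjusted p = 3.52e-06), 187 ± 10.4 CPM with OSM and 177 ± 13.2 CPM with IL13, and fell to 12.7 ± 7.46 CPM with TGFB1 (−2.04, SE 0.34, adjusted p = 5.67e-05). It also rose with IFNG. ITGA4 fell with TGFB1, where VCAM1 fell, and with IFNA and IFNG, where VCAM1 rose. POSTN (periostin, a ligand of αV integrins) rose with IL13 from 366 ± 76.0 to 8330 ± 2558 CPM (4.51, SE 0.22, adjusted p = 3.66e-20) and TNC (tenascin-C) from 292 ± 89.2 to 984 ± 127 CPM. CCN2 rose with TGFB1 from 298 ± 92.4 to 1205 ± 198 CPM, and THBS1 fell with IL1B from 1073 ± 335 to 246 ± 36.5 CPM. ICAM1, the ligand of the leukocyte β2 integrins, was at 0 in all unstimulated libraries and at 26.2 ± 6.05 CPM with TNF, 29.8 ± 20.8 CPM with IFNG, 4.67 ± 3.17 CPM with IL1B and 3.91 ± 1.58 CPM with IFNA, and SPP1 was at 0 and at 9.89 ± 6.14 CPM with TNF.

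Other receptors of laminin (8 of 9 tested, among them dystroglycan, syndecans and CD44) gave no rise against unstimulated cells: SDC2 fell with TNF, IL1B, IL17A, IFNG and OSM, SDC4 with IL1B and IL17A, and CD44 with IL1B, IL17A and TGFB1. Of all genes tested 0% (IL22) to 5.52% (IFNG) rose and 0% (IL6 and IL22) to 6.09% (TNF) fell. At such shares 0 rises among 8 genes says little about these receptors. Of 32 genes of the integrin adhesome, the proteins that tie integrins to actin, 25 were tested. Called were 1 of the 25 with TNF, 4 with IL1B, 1 with IL17A, 2 with IFNA, 3 with IFNG, 1 with TGFB1, 2 with IL13 and 2 with OSM, where 11.5%, 7.38%, 1.52%, 9.85%, 10.6%, 5.69%, 3.93% and 3.96% of all genes were. With TNF the share of the list was smaller than that of all genes, and with IFNA, IFNG and TGFB1 it was close to it. With IL1B, IL17A, IL13 and OSM it was larger. On 25 genes such shares rest on few calls, and no difference from all genes was tested. FERMT2 (kindlin-2, an integrin activator) fell with TNF, IL1B and IFNG and rose with IL13, ACTN1 fell with IL1B and IL17A, VCL with IL1B and IFNG, and ITGB1BP1 with IFNA, IFNG and OSM. ACTN4 (IL1B), PARVB (IFNA), TNS3 (TGFB1) and LIMS1 (IL13 and OSM) were the remaining calls, all lower, and IL6 and IL22 called 0. Of 7 genes of latent TGF-β, which αV integrins are known to bind and activate, 4 were tested. TGFB3 was at 0 in all unstimulated libraries and at 12.8 ± 3.67 CPM with IL1B, 13.7 ± 7.50 CPM with IFNA, 5.53 ± 1.39 CPM with TNF, 5.16 ± 5.37 CPM with IL17A and 4.23 ± 0.729 CPM with OSM. LTBP1 and LTBP2 rose with TGFB1, both fell with IL1B (LTBP2 from 26.5 ± 4.97 to 8.03 ± 2.87 CPM), LTBP1 fell with IFNA, and TGFB2 fell with TNF from 12.5 ± 7.65 to 1.02 ± 1.26 CPM. The shares of all genes called with these cytokines are those given for the adhesome, and 4 genes are too few to set against them.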

How the data were processed

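Bulk RNA-seq of 44 Ccd-18Co libraries was used, and groups and replicate numbers were taken from the sample labels. The authors ran kallisto (version 0.48.0), after read checks by FastQC (0.11.9) and MultiQC (1.14), and deposited estimated counts per gene symbol, not scaled for depth, of which 5.77% are not whole numbers. The transcriptome release, the strand setting and the step from transcripts to symbols are not given in the sources used here. Estimated counts were rounded. The function filterByExpr of edgeR, given the 11 groups, selected the genes to test, library sizes were normalized by TMM, and edgeR (version 4.0.16, R 4.3.3) fitted all 44 libraries in 1 quasi-likelihood model without covariates (common biological coefficient of variation 0.331), which pools the spread over the groups. Tests were 2-sided, with Benjamini-Hochberg adjustment within each comparison, a call at an adjusted p under 0.05 and a second rule that adds the study's absolute log2 fold change above 1.5.

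The members, the other lists and the tests were chosen with earlier results of these data known. Members called at an absolute log2 fold change above 1 were to be printed by library, for the groups described, and the others as ranges; LAMC1 and ITGB1 were printed by library after their values were seen. From the lists of partners, ligands, other receptors, adhesome and latent TGF-β, genes called past 1.5 were named with values, at most 3 per list and comparison; further genes were named by direction after their values were seen. Positions, transcript lengths and GC content were taken from GENCODE 44 (GRCh38), which held 99.23% of the symbols and all 38 members, and promoters from RefSeq (GRCh38.p14). Replicates of a group were compared in 66 pairs, of which 0 were identical, and the chi-square per degree of freedom of their counts was at least 3.212. The code was tested on simulated counts. The alternatives were DESeq2's size factors, DESeq2's Wald test (version 1.42.0), other filters on low counts, only the 8 libraries compared, each library left out, a replicate block, the fold limit and a GC content correction. Protein sequences are not used here. Values of 1 of the members are not reported here.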

Additional observations from a re-analysis of the deposited data

Results flagged for a closer look

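The libraries of each group were screened by Dixon's ratio for the genes called in at least 1 comparison with unstimulated cells. In 8 of 154 groups of 4 libraries a single library stood apart (above the 95% critical value). About 1 in 20 groups, or 7.7 of 154, would be expected to by chance. ITGB1 was at 4345 CPM in TGFB1 replicate 4, where the other 3 libraries were at 3484 to 3599 CPM, and at 2130 CPM in IFNG replicate 2, where the others were at 1712 to 1756 CPM. LAMA4 was at 102 CPM in IL17A replicate 3 (others 79.6 to 81.5 CPM) and at 138 CPM in IFNG replicate 1 (others 94.7 to 98.8 CPM). IL17A replicate 2 was high for ITGA2, at 137 CPM (others 92.1 to 95.9 CPM), and for ITGA4, at 18.7 CPM (others 10.3 to 11.2 CPM). ITGA6 was at 18.2 CPM in unstimulated replicate 2 (others 12.2 to 13.0 CPM), and ITGAE at 106 CPM in IL22 replicate 2 (others 82.6 to 85.9 CPM). All 8 of these were the highest library of their group.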

How the results depend on the processing

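Over the 52 calls of a gene in a comparison, 778 refits under the alternatives gave 697 on the same side of the threshold, 80 that lost the call, 0 that changed direction and 1 without an adjusted p. The fold limit of 1.5 cut the number of genes called to 4 for IL1B, 0 for IL17A, 1 for IFNA, 1 for IFNG, 1 for TGFB1, 2 for IL13, 0 for TNF against IL1B and 1 for IFNA against IFNG. A fit of only the 8 libraries compared called 3 with IFNG, 2 for TNF against IL1B and 1 for IFNA against IFNG. With all genes of any count, 2 were called with OSM and 2 for TNF against IL1B. DESeq2's Wald test called 1 with IL22. With 1 library left out in turn the counts ranged from 7 to 9 for TNF, 5 to 8 for IL1B, 1 to 2 for IL17A, 4 to 6 for IFNA, 3 to 9 for IFNG, 3 to 5 for TGFB1, 3 to 4 for IL13, 0 to 3 for OSM, 7 to 8 for TGFB1 against IL13 and 1 to 3 for IFNA against IFNG, and stayed at 0 for IL6 and IL22 and at 1 for TNF against IL1B. The count for IL17A was 1 without unstimulated replicate 2 or IL17A replicate 4, that for IFNG 4 without unstimulated replicate 2 and 3 without IFNG replicate 4, that for OSM 2 without unstimulated replicate 1, 0 without OSM replicate 1 and 3 without OSM replicate 4, and that for IFNA against IFNG 1 without IFNA replicate 1 or 2 or IFNG replicate 3 or 4. The GC content correction, chosen after seeing the data, called 10 with TNF, 6 with IFNA, 5 with IFNG, 6 with TGFB1 and 3 for IFNA against IFNG. The cause of these shifts was not tested. Over all genes tested, the fit of 8 libraries called 451 in place of 1013 with IFNG, 233 in place of 541 with TGFB1, 515 in place of 893 for IFNA against IFNG and 0 in place of 1 with IL6. DESeq2 called 233 in place of 145 with IL17A, 177 in place of 109 for TNF against IL1B and 96 in place of 0 with IL22. With all genes of any count, 220 were called with IL17A, 227 for TNF against IL1B, 29 with IL22 and 13 with IL6. With 1 library left out, the count over all genes with IL17A was 79, 63 or 229 without unstimulated replicate 1, 2 or 3 and 73, 92 or 91 without IL17A replicate 2, 3 or 4. With TGFB1 it was 313 without unstimulated replicate 2 and 360 or 859 without TGFB1 replicate 1 or 4. With IL13 it was 233 in place of 374 without unstimulated replicate 4, and with OSM 249, 245 or 218 in place of 377 without unstimulated replicate 2 or 4 or OSM replicate 1. For IL22 it was 74 without unstimulated replicate 3 and 54 without IL22 replicate 4, and for TNF against IL1B 70, 57 or 60 without IL1B replicate 1 or 2 or TNF replicate 3. The limits of depth bear most on ITGA6, LAMA1, LAMA3 and ITGB3, whose groups were near 3 counts per library. They also bear on ITGA4 with TNF and IL1B and on the lowest ITGA8 library with TNF.

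The replicate number as a block called 2 genes with OSM, 6 with TGFB1, 8 with IFNA, 8 for TGFB1 against IL13 and 3 for IFNA against IFNG, and gave the same counts as without it elsewhere. Over all genes it called 223 with IL17A and 12 with IL22. Deviations of same-numbered libraries of different groups were weakly correlated (−0.187 to 0.281, mean 0.024, over 220 pairs). The mean for libraries of other numbers was −0.008. Of 44 libraries, 22 were best with their own number, which is more than an even spread over the replicate numbers would give. The numbers were not taken as a pairing in the main fit, and whether same-numbered libraries share a deviation was not tested.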

Other observations

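LAMB3 and ITGA3 were too low for the main test, and their counts are given by group. LAMB3, the β chain of the epithelial laminin, had 19 counts in all over the TNF libraries and 14 over the IL1B libraries, where 1 was counted in unstimulated cells, 7 with IL17A, 3 with IFNG, 2 each with IL6, IL22 and IFNA, and 0 with IL13, TGFB1 or OSM. Each TNF and IL1B library had at least 1 count of it. ITGA3, the α3 laminin receptor chain, had 22 counts with IFNG, of which IFNG replicate 2 had none, 15 with IL6, 11 with IFNA, 8 with TNF, 6 each with IL22 and OSM, 4 in unstimulated cells, 3 each with IL1B and IL13, 2 with TGFB1 and 1 with IL17A. These genes were chosen after their values were seen, and the main fit made no test of them. The alternative with all genes of any count included both, and its results for them are not given here.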
